A study of Mus musculus with 6 samples.

Results

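The unfolded protein response and the integrated stress response were followed through 36 genes in primary mouse renal fibroblasts that had been kept alone or with Th17 cells. The genes were taken by symbol from a table of 34745 genes, of which 13088 had enough counts to be tested. All 36 were present and all 36 were tested. Renal fibroblasts, which make the matrix of the kidney and were isolated here by enzyme digestion of the organ from wild-type (WT) mice, were left to attach for 6 h before any coculture began. In the coculture, Th17 cells (helper T cells that make interleukin-17, differentiated from CD4+ T cells with interleukin-1β, interleukin-6, interleukin-23 and an antibody to interferon-γ) sat in a transwell insert with 0.4-µm pores above the fibroblasts for 24 h, and the fibroblasts below were collected. There were 3 libraries of fibroblasts alone and 3 libraries of fibroblasts with Th17 cells, and both groups carried the same WT genotype. For the fibroblasts alone, the time from attachment to collection and whether an insert was used were not given. The age and sex of the mice, and whether libraries of a group came from separate animals or cultures, were not given, so all errors and p-values below measure only how far these libraries differ, which may be technical. The total count was between 12050529 and 13209581 per library, and a floor of 3 counts lay between 0.223 and 0.254 CPM (counts brought to the same library size).

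The endoplasmic reticulum (ER) folds secreted and membrane proteins, and fibroblasts that export collagen depend on it heavily. When unfolded proteins build up there, the sensors IRE1 (encoded by Ern1), ATF6 and PERK (encoded by Eif2ak3) start the unfolded protein response, in which Xbp1 and Atf6 act on genes of chaperones and of ER-associated degradation. PERK also phosphorylates the translation factor eIF2, as do kinases that sense amino acid shortage, missing heme or viral RNA. That shared step, the integrated stress response, slows translation in general but favors translation of Atf4, whose targets include transcription factors, Trib3 and enzymes of amino acid and one-carbon metabolism. Counts of fragments per gene do not show Xbp1 splicing, eIF2 phosphorylation or Atf4 translation, so the values below are transcript levels alone.

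Promoters of several members hold the element through which Atf6 and Xbp1 are known to act, and these sequences are shown because the matches lay in genes of ER folding and degradation. The ER stress element (ERSE) was searched as CCAAT, 9 bases of any kind and CCACG, on both strands, from 250 bases before to 50 bases after each RefSeq start site on GRCm38.p6. It occurred in 39 of 32851 promoters (0.119%) and in 8 of the 33 members that had a promoter in the table. Atf6, Manf and Hyou1 had none there. Capitals mark the fixed letters, each sequence is printed in the direction in which the element reads, and 5 flanking bases stand at each end.
Hspa5, chr2:34772020-34772048, plus strand: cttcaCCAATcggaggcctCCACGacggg
Hsp90b1, chr10:86705633-86705661, minus strand: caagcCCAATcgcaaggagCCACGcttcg
Hsp90b1, chr10:86705528-86705556, plus strand: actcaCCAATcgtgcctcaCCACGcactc
Calr, chr8:84847070-84847098, plus strand: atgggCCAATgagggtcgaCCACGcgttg
Canx, chr11:50325795-50325823, minus strand: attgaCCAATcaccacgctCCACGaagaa
Pdia6, chr12:17266486-17266514, plus strand: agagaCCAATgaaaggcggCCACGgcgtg
Dnajc3, chr14:118937822-118937850, plus strand: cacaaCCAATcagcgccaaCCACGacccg
Creld2, chr15:88819515-88819543, minus strand: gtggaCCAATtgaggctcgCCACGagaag
Syvn1, chr19:6046527-6046555, plus strand: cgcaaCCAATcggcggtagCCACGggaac

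A second form, ERSE-II (ATTGG, 1 base of any kind and CCACG), occurred in 12 promoters (0.0365%), of which 2 belonged to members. The amino acid response letters TGATGAAAC occurred in 81 promoters (0.247%) and, among members, in Asns alone.
Herpud1, ERSE-II, chr8:94386372-94386392, plus strand: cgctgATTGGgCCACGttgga
Dnajb11, ERSE-II, chr16:22857847-22857867, plus strand: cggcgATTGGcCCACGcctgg
Asns, chr6:7693219-7693237, minus strand: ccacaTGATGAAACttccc

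No member promoter held TGATGCAAT (63 promoters, 0.192%) or TGACGTGG (222 promoters, 0.676%), which shares the letters CCACG, read on the other strand, with both forms of ERSE. A match is a description of letters and not of binding. Only these exact letters were searched, so other spellings of the elements, or copies outside the window, would be missed. No Atf4-type gene had an ERSE or ERSE-II match in this window.

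The comparison asked which stress response transcripts differed when Th17 cells shared the medium. With Th17 cells 6 members were higher and 8 were lower (edgeR quasi-likelihood test, Benjamini-Hochberg adjusted p below 0.05 over all genes tested), and 22 did not pass. Over all genes tested, 17.1% were higher, 20.0% were lower and 37.1% passed in either direction, so the 38.9% of members that passed was close to that background. The changes were small. Atf3 alone also passed a fold change of 2, as did 11.6% of all genes in either direction. The log2 fold changes of members ran from −1.19 to 0.46 with a median of −0.01, and the median of their size was 0.17, where that of all genes tested was 0.26. In CPM the libraries of both groups stayed apart for 19 of 36 members and for 50.4% of all genes. The split between directions depended on the scaling, since 9 members were higher and 5 were lower when library size alone set the scale.

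**Figure D1:**
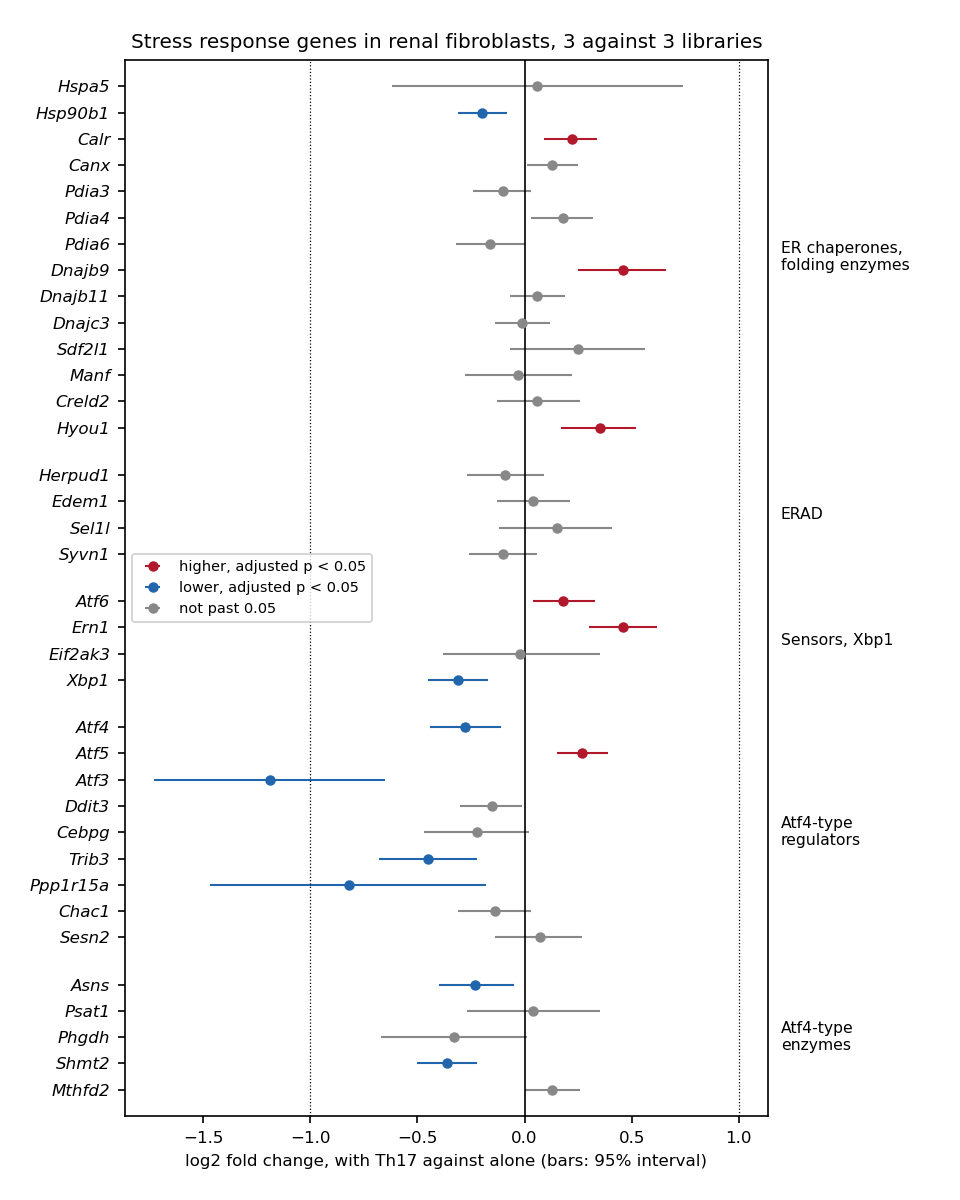
Log2 fold change of each of the 36 members (vertical axis, grouped by role) with Th17 cells against alone (horizontal axis), from 3 libraries per group. Points are fitted values, bars 95% intervals, red and blue mark members that passed an adjusted p of 0.05 as higher or lower, gray marks the rest, and dotted lines mark a fold change of 2. Higher members lie mostly among the chaperones and sensors, and 6 of the 8 lower members are Atf4-type genes.

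Chaperones and folding enzymes of the ER were abundant in both groups, and those that passed moved in both directions. Of the 14 genes 3 were higher, 1 was lower and 10 did not pass, with a median log2 fold change of 0.06 and a range from −0.20 to 0.46 (5 higher and 0 lower under library size only). The 28.6% that passed was below the 37.1% of all genes tested. On the FPKM scale, which corrects for gene length, Calr (mean of 357.9 over the 6 libraries), Hsp90b1 (323.3) and Pdia3 (298.3) had the highest levels of all members. Within the group, Hspa5 followed at 163.1 and Canx at 106.4. The summed CPM of the 13 genes other than Hspa5 was 6720.6, 6692.8 and 6602.2 in fibroblasts alone and 6734.3, 6722.7 and 6652.0 with Th17 cells. These sums overlapped between the groups. On the FPKM scale, which carries no TMM factor, the sums were 1425.2, 1424.0 and 1412.9 alone and 1504.4, 1494.5 and 1504.9 with Th17 cells and did not overlap. On that scale all genes tested had a median log2 fold change of 0.05 to 0.06 by limma, against 0.00 under TMM. The separation of the FPKM sums was therefore not taken as a rise of these chaperones. In bulk RNA, fewer cells of a type and less RNA per cell cannot be told apart.

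Dnajb9, a J-domain cochaperone of BiP (ENSMUSG00000014905, chromosome 12, 44205897 to 44210068), had the highest fold change of the group. It measured 49.1, 47.1 and 45.9 CPM alone and 62.8, 59.5 and 73.0 CPM with Th17 cells. Every cocultured library was above every library kept alone, a rise of 37.4% in the mean (log2 fold change 0.46, SE 0.091, adjusted p = 0.00369 with edgeR). Hyou1, a large chaperone of the ER that exchanges nucleotide on BiP (ENSMUSG00000032115, chromosome 9, 44379490 to 44392369), measured 169.2, 168.6 and 166.6 CPM alone and 214.7, 234.9 and 192.2 CPM with Th17 cells. The libraries kept alone were nearly equal while the cocultured ones spread more, and the groups stayed apart (168.1 ± 1.34 against 214.0 ± 21.4 CPM, SD, n = 3 each, with a log2 fold change of 0.35, SE 0.077, adjusted p = 0.00684 with edgeR).

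Calr and Hsp90b1, the most abundant transcripts per length among the members, moved in opposite directions. Calreticulin, encoded by Calr (ENSMUSG00000003814, chromosome 8, 84841850 to 84846934), binds calcium and holds glycoproteins while they fold. Calr measured 1368.3, 1433.1 and 1413.6 CPM alone and 1603.3, 1716.7 and 1572.8 CPM with Th17 cells, without overlap (log2 fold change 0.22, SE 0.055, adjusted p = 0.0132 with edgeR). Hsp90b1 encodes the Hsp90 chaperone of the ER (ENSMUSG00000020048, chromosome 10, 86690209 to 86705509). It fell from 1925.3, 1857.5 and 1815.4 CPM alone to 1622.2, 1631.2 and 1636.0 CPM with Th17 cells, a decrease of 12.7% in the mean (log2 fold change −0.20, SE 0.049, adjusted p = 0.0125 with edgeR). The call for Hsp90b1 was lost without replicate 2 of the fibroblasts alone (log2 fold change −0.20, adjusted p = 0.0531 with edgeR) and with library size only (−0.13, adjusted p = 0.054 with edgeR). Of its 4032 exonic bases, 415 lie opposite another gene and 217 are shared with genes on the same strand, and whether strand was used in counting is not known. Its promoter and that of Calr both hold an ERSE, as printed above. The other 6 members with an ERSE lay between these 2 genes in log2 fold change and did not pass the test.

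Hspa5, which encodes BiP, the chief Hsp70 chaperone of the ER and the usual readout of the unfolded protein response (ENSMUSG00000026864, chromosome 2, 34771970 to 34777547), varied more within groups than between them. It measured 1324.9, 1307.6 and 691.4 CPM in replicates 1, 2 and 3 of the fibroblasts alone. With Th17 cells it measured 850.9, 910.1 and 1710.5 CPM. Replicate 3 was the lowest of its group alone and the highest of its group with Th17 cells, and the groups overlapped (1108.0 ± 360.8 against 1157.2 ± 480.1 CPM, SD, n = 3 each). The log2 fold change was 0.06 (SE 0.300, 95% interval −0.62 to 0.74, adjusted p = 0.894 with edgeR), so differences of either sign within these bounds were not excluded. Without replicate 3 of the cocultured fibroblasts it was −0.33, and without replicate 1 of them it was 0.24, and neither passed (adjusted p = 0.328 with edgeR and 0.602). The highest library was 1.92 times the lowest alone and 2.01 times the lowest with Th17 cells, ratios larger than those of the other 13 chaperones and folding enzymes.

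Among the remaining folding genes, several had groups that did not overlap without passing the test. Canx, the membrane-bound partner of calreticulin, measured 771.4, 773.2 and 756.4 CPM alone and 876.2, 804.2 and 834.4 CPM with Th17 cells (log2 fold change 0.13, SE 0.054, adjusted p = 0.0933 with edgeR). Pdia4, a disulfide isomerase, measured 250.6, 255.5 and 258.8 CPM alone and 288.5, 307.1 and 268.9 CPM with Th17 cells (0.18, SE 0.064, adjusted p = 0.0574 with edgeR). Pdia4 passed without replicate 3 of the cocultured fibroblasts (0.23, adjusted p = 0.0113 with edgeR), and both genes passed with library size only. Pdia3, the isomerase that works with calreticulin and calnexin, was at 1220.3 to 1223.1 CPM alone and 1048.4 to 1204.3 CPM with Th17 cells (−0.10, SE 0.061, adjusted p = 0.214 with edgeR). The groups overlapped for Pdia6 (−0.16, 95% interval −0.32 to −0.00), Sdf2l1 (0.25, −0.07 to 0.56), Dnajb11 (0.06, −0.07 to 0.19), Dnajc3 (−0.01, −0.14 to 0.12), Manf (−0.03, −0.28 to 0.22) and Creld2 (0.06, −0.13 to 0.26), and none passed (adjusted p from 0.102 to 0.917 with edgeR).

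**Figure D2:**
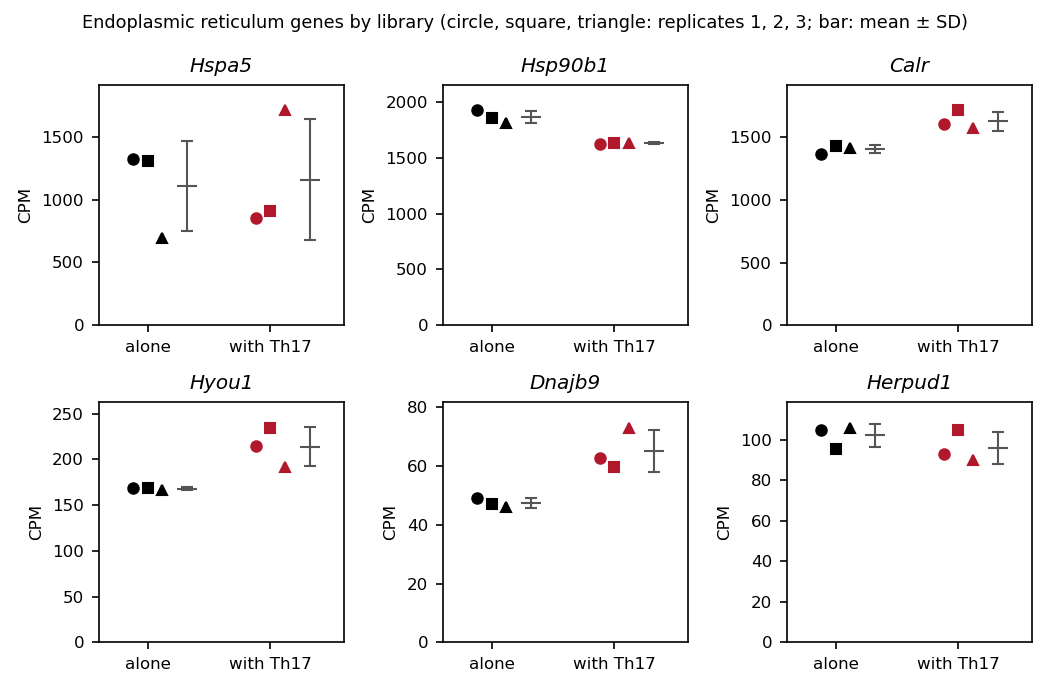
CPM (vertical axes, from 0) in each library for 5 chaperones and for Herpud1, a gene of ER-associated degradation, with fibroblasts alone in black and with Th17 cells in red. Circles, squares and triangles are replicates 1, 2 and 3, and the bars give mean ± SD (n = 3). Hspa5 spans 691.4 to 1710.5 CPM with its extremes in the replicates numbered 3, while Hsp90b1, Calr, Hyou1 and Dnajb9 separate by group.

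ER-associated degradation, which returns misfolded proteins to the cytosol for the proteasome, showed no gene that passed by edgeR, none at an unadjusted p of 0.05, and none by DESeq2 or limma. The 4 members are Herpud1, which helps assemble the degradation complex, Edem1, which recognizes trimmed glycoproteins, and Sel1l with Syvn1, which form the adaptor and ubiquitin ligase core. Herpud1 measured 104.8, 95.5 and 106.0 CPM alone and 92.7, 104.9 and 90.1 CPM with Th17 cells (log2 fold change −0.09, 95% interval −0.27 to 0.09, adjusted p = 0.407 with edgeR). Edem1 had a log2 fold change of 0.04 (−0.13 to 0.21) and Syvn1 one of −0.10 (−0.26 to 0.06). The 2 groups overlapped for all 4. Sel1l measured 145.7, 147.5 and 200.9 CPM alone and 183.7, 177.1 and 186.4 CPM with Th17 cells, so that replicate 3 of the fibroblasts alone stood above the whole cocultured group (0.15, SE 0.117, adjusted p = 0.358 with edgeR). Without that library Sel1l had a log2 fold change of 0.31 and passed (adjusted p = 0.0145 with edgeR).

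The sensors and Xbp1 did not move together. Ern1, which encodes the sensor IRE1 (ENSMUSG00000020715, chromosome 11, 106394650 to 106487852), measured 76.2, 67.1 and 69.8 CPM alone and 99.8, 98.5 and 94.7 CPM with Th17 cells. The lowest cocultured library lay well above the highest library kept alone, a rise of 37.5% in the mean (log2 fold change 0.46, SE 0.071, adjusted p = 0.00092 with edgeR). Xbp1, whose transcript IRE1 splices (ENSMUSG00000020484, chromosome 11, 5520659 to 5525893), fell from 206.7, 194.9 and 203.1 CPM alone to 153.9, 163.8 and 170.8 CPM with Th17 cells. These groups were also separate, in the opposite direction (log2 fold change −0.31, SE 0.063, adjusted p = 0.00442 with edgeR). Atf6, the sensor that is cut in the Golgi to release a transcription factor, measured 125.9, 124.4 and 131.7 CPM alone and 141.3, 140.7 and 152.1 CPM with Th17 cells. Its rise was marginal (log2 fold change 0.18, SE 0.062, adjusted p = 0.0444 with edgeR), and the call was lost when any of the 6 libraries was left out (0.15 to 0.21, adjusted p from 0.0535 to 0.147 with edgeR). Eif2ak3, which encodes the sensor PERK, had the lowest level of all members per length (mean of 2.54 FPKM). It measured 19.3, 23.0 and 18.5 CPM alone and 19.2, 24.7 and 16.2 CPM with Th17 cells, and its interval was wide (log2 fold change −0.02, 95% interval −0.38 to 0.35, adjusted p = 0.944 with edgeR). Of its 6026 exonic bases, 485 lie opposite another gene.

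The Atf4-type genes, given apart from the chaperones, were more often lower than higher. Of 14 such genes (9 regulators and 5 enzymes) 6 were lower, 1 was higher and 7 did not pass, where 20.0% of all genes tested were lower. Their log2 fold changes lay below 0 for 10 genes and above 0 for 4, with a median of −0.22 against 0.00 for all genes. With library size as the only scaling the median was −0.16, 4 were lower and 2 were higher. By DESeq2, 3 regulators and 1 enzyme were lower and 1 regulator was higher. By limma, 2 regulators and 1 enzyme were lower, and 1 regulator and 1 enzyme were higher. Summed over the 14 genes, the level was 2354.6, 2376.3 and 2294.2 CPM alone and 2038.9, 2052.8 and 2146.5 CPM with Th17 cells, so that the sums did not overlap. The fold changes were below 2 for every one of these genes except Atf3.

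Atf4, the transcription factor whose translation defines the response (ENSMUSG00000042406, chromosome 15, 80255184 to 80257540), was among the most abundant members per length (mean of 242.1 FPKM). It measured 448.2, 456.4 and 468.9 CPM alone and 339.2, 394.0 and 401.9 CPM with Th17 cells. The groups did not overlap, and the mean fell by 17.4% (log2 fold change −0.28, SE 0.072, adjusted p = 0.0155 with edgeR). The call was lost without replicate 2 of the fibroblasts alone (−0.27, adjusted p = 0.0527 with edgeR) and without replicate 3 of them (−0.26, adjusted p = 0.0624 with edgeR). Atf5, a related factor that is translated under the same conditions (ENSMUSG00000038539, chromosome 7, 44812256 to 44816599), moved the other way. It rose from 184.1, 184.4 and 185.6 CPM alone to 222.8, 223.0 and 221.8 CPM with Th17 cells. The SD within each group was under 1 CPM (184.7 ± 0.745 against 222.5 ± 0.637 CPM, SD, n = 3 each), and the log2 fold change was 0.27 (SE 0.053, adjusted p = 0.00355 with edgeR). Exons of other genes lie opposite 164 of the 1993 exonic bases of Atf5.

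Atf3 had the largest decrease of the 36 members. It encodes a stress-induced factor of the same family (ENSMUSG00000026628, chromosome 1, 191170296 to 191218039). The counts were 178, 159 and 162 alone and 47, 82 and 100 with Th17 cells, or 13.8, 12.6 and 13.7 CPM against 3.49, 6.44 and 7.61 CPM. The groups were well apart although the cocultured libraries differed among themselves, and the mean was 2.29-fold lower (log2 fold change −1.19, SE 0.238, adjusted p = 0.00386 with edgeR). Trib3, a pseudokinase that restrains Atf4 (ENSMUSG00000032715, chromosome 2, 152337422 to 152344032), fell from 105.2, 106.3 and 107.1 CPM alone to 65.7, 78.4 and 89.1 CPM with Th17 cells. It was steady in fibroblasts alone and variable in coculture, without overlap (log2 fold change −0.45, SE 0.103, adjusted p = 0.00777 with edgeR).

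Ppp1r15a, which encodes the phosphatase subunit that reverses eIF2 phosphorylation (ENSMUSG00000040435, chromosome 7, 45522916 to 45526268), had the second largest decrease and a wide spread. It measured 143.1, 89.7 and 141.4 CPM alone and 94.4, 40.0 and 77.1 CPM with Th17 cells, with replicate 2 the lowest in both groups. The groups overlapped, since the highest cocultured library exceeded the lowest library kept alone (log2 fold change −0.82, SE 0.284, adjusted p = 0.0485 with edgeR). The call was lost without replicate 1 or 3 of the fibroblasts alone (−0.71 and −0.72, adjusted p = 0.146 with edgeR and 0.131) and without replicate 2 or 3 of the cocultured fibroblasts (−0.54 and −0.89, adjusted p = 0.0799 with edgeR and 0.0752). Ddit3, which encodes CHOP, a factor linked to cell death under stress, did not pass. Its values were 113.9, 113.9 and 105.4 CPM alone and 103.5, 99.7 and 96.8 CPM with Th17 cells, which do not overlap (−0.15, SE 0.064, adjusted p = 0.0942 with edgeR). The annotation holds a further Ddit3 gene that shares 105 bases with it. Chac1, an enzyme that degrades glutathione, measured 52.1, 57.3 and 54.5 CPM alone and 47.7, 51.4 and 49.6 CPM with Th17 cells (−0.14, SE 0.074, adjusted p = 0.168 with edgeR). The groups overlapped for Cebpg, a partner of Atf4 (−0.22, SE 0.109, adjusted p = 0.139 with edgeR), and for Sesn2, which restrains mTORC1 signaling (0.07, SE 0.090, adjusted p = 0.593 with edgeR). Cebpg passed without replicate 1 of the cocultured fibroblasts (−0.34, adjusted p = 0.0246 with edgeR).

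**Figure D3:**
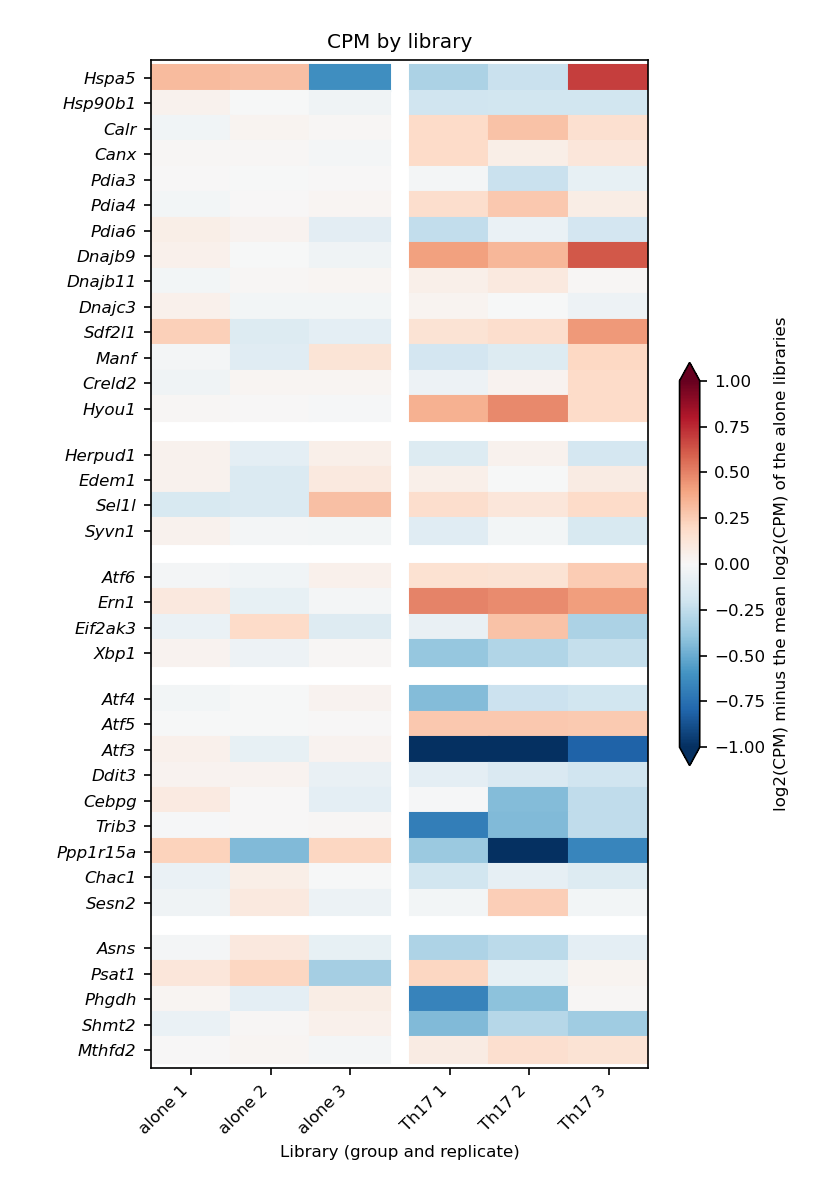
Heat map of the 36 members (vertical axis) in the 6 libraries (horizontal axis), colored by log2(CPM) minus the mean log2(CPM) of the fibroblasts alone, with color limits at −1 and 1 and the groups of genes separated by gaps. Atf5 and Ern1 are red and Atf3, Xbp1 and Shmt2 blue in all 3 cocultured libraries (the first 2 values of Atf3 lie past the color limit), whereas Hspa5 and Ppp1r15a differ strongly between libraries of the same group.

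The enzymes that Atf4 is known to drive did not move as a block. Shmt2, the mitochondrial serine hydroxymethyltransferase that feeds one-carbon units (ENSMUSG00000025403, chromosome 10, 127517123 to 127522444), fell from 313.4, 331.0 and 338.8 CPM alone to 241.5, 269.0 and 255.7 CPM with Th17 cells. The decrease was 22.1% of the mean and exceeded the spread of either group (327.8 ± 13 against 255.4 ± 13.8 CPM, SD, n = 3 each, with a log2 fold change of −0.36, SE 0.063, adjusted p = 0.00193 with edgeR). Asns, the asparagine synthetase whose promoter holds the TGATGAAAC letters printed above, measured 261.4, 285.8 and 250.1 CPM alone and 214.1, 220.1 and 247.9 CPM with Th17 cells. The groups were separated by a narrow margin (log2 fold change −0.23, SE 0.078, adjusted p = 0.0483 with edgeR), and the call was lost in 5 of the 6 fits that left out a library, all but the one without replicate 3 of the cocultured fibroblasts (−0.29 to −0.17, adjusted p from 0.0114 to 0.199 with edgeR over the 6). Phgdh, which starts serine synthesis, measured 87.3 to 98.7 CPM alone and 58.9, 70.5 and 94.2 CPM with Th17 cells (−0.33, SE 0.149, adjusted p = 0.117 with edgeR). Replicate 3 of the cocultured fibroblasts lay within the range of the fibroblasts alone, and without it Phgdh passed (−0.53, adjusted p = 0.00346 with edgeR). Psat1, the next enzyme of serine synthesis, varied from 215.1 to 316.1 CPM alone and from 257.2 to 316.0 CPM with Th17 cells (0.04, 95% interval −0.27 to 0.35, adjusted p = 0.853 with edgeR). Mthfd2, the mitochondrial folate enzyme after Shmt2, was at 144.6 to 148.9 CPM alone and 155.2 to 164.9 CPM with Th17 cells without passing (0.13, SE 0.057, adjusted p = 0.104 with edgeR).

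Further genes of the same pathways were examined through 12 lists with 204 tested genes, of which 24 were higher and 58 were lower (41 and 48 with library size only). The 40.2% that passed in either direction was close to the 37.1% of all genes tested, of which 17.1% were higher and 20.0% lower. In the ER, 24 other folding genes had 9 lower and 1 higher, with a median log2 fold change of −0.18. Pdia5, a disulfide isomerase, had a log2 fold change of −0.81 (SE 0.079, adjusted p = 4.83e-05 with edgeR), and Ero1a, the oxidase that recharges such isomerases, had −0.69 (SE 0.054, adjusted p = 1.21e-05 with edgeR). Nucb1, a calcium-binding protein, was the higher gene (0.18, SE 0.055, adjusted p = 0.0314 with edgeR), a call lost in 5 of the 6 fits that left out a library, all but the one without replicate 3 of the cocultured fibroblasts (adjusted p from 0.0544 to 0.113 with edgeR in those 5). Of 16 genes of collagen folding and modification 10 were lower and none higher, with a median of −0.45 (at an unadjusted p of 0.05, 1 was higher by edgeR, 0 by DESeq2 and 2 by limma, and with adjustment 0 by DESeq2 and 1 by limma). The lowest of these were P4ha3, a prolyl hydroxylase subunit (−0.99, SE 0.120, adjusted p = 0.000209 with edgeR), and Plod2, a lysyl hydroxylase (−0.83, SE 0.058, adjusted p = 5.42e-06 with edgeR). Of 21 translocon and signal peptidase genes 4 were lower and none higher (median −0.10). At an unadjusted p of 0.05, 2 were higher by edgeR, 2 by DESeq2 and 4 by limma, and with adjustment 1 by DESeq2 and 2 by limma. Among the 4 that passed, Ssr2 (−0.78) and Sec61b (−0.34) were lowest, and the call for Sec61b was lost with library size only and in 5 of the 6 fits that left out a library, all but the one without replicate 3 of the cocultured fibroblasts (−0.36 to −0.28, adjusted p from 0.0592 to 0.0901 with edgeR).

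**Figure D4:**
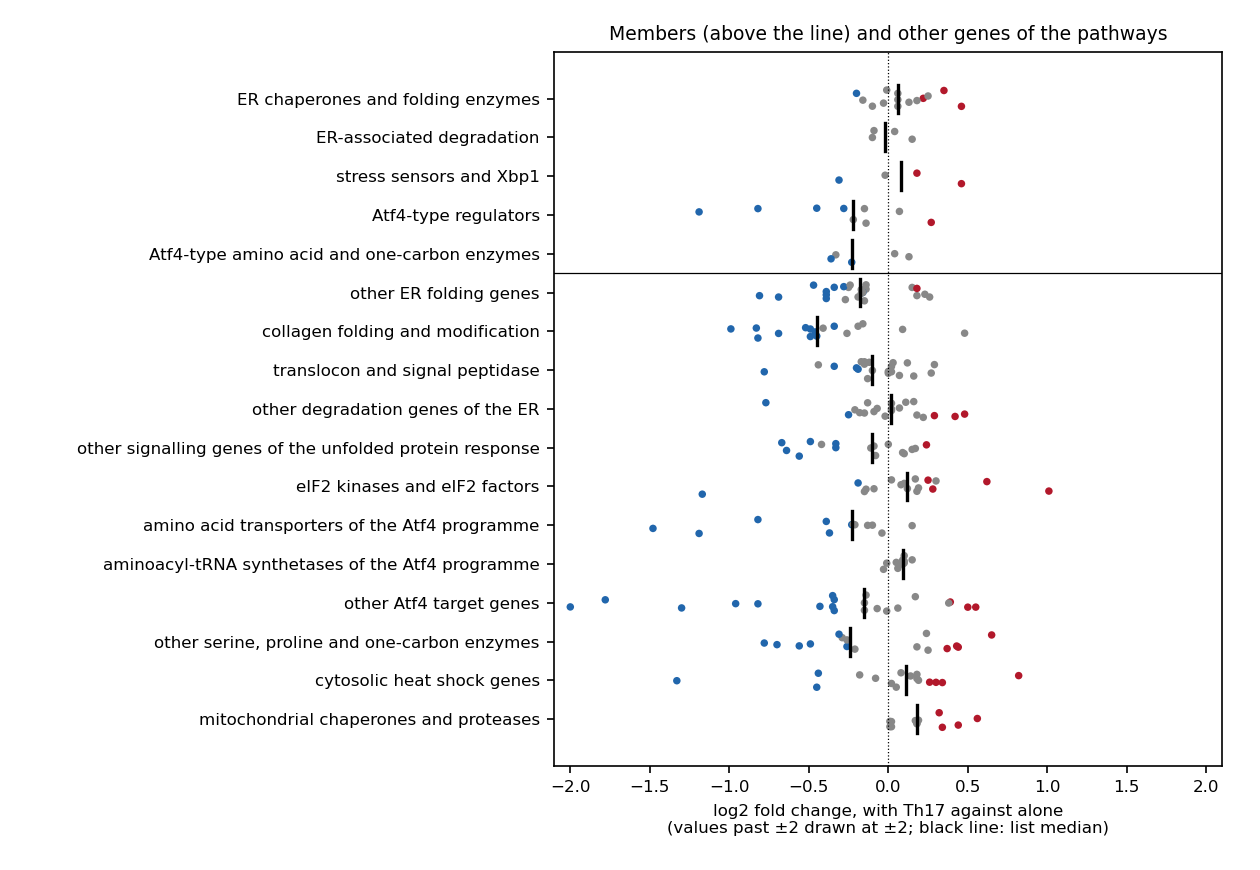
Log2 fold change with Th17 cells against alone (horizontal axis) of each tested gene, by list (vertical axis), with the 36 members above the line and 12 further lists of pathway genes below it. Red and blue points passed an adjusted p of 0.05 as higher or lower, gray points did not, vertical positions within a list are arbitrary, and black lines are list medians. The lists of collagen folding (median −0.45), serine, proline and one-carbon enzymes (−0.24) and amino acid transporters (−0.23) have the lowest medians of the 12, and mitochondrial chaperones and proteases (0.18) the highest.

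Degradation and signaling lists were mixed, with 25% and 43.8% of tested genes passing, where 37.1% of all genes tested passed. Among 20 other degradation genes of the ER 3 were higher and 2 lower (median 0.02). Nploc4 (0.48, SE 0.065, adjusted p = 0.000415 with edgeR) and Vcp (0.42, SE 0.059, adjusted p = 0.000483 with edgeR), which pull proteins out of the membrane, were higher, and Rnf139 (−0.77) and Derl1 (−0.25) were lower. The call for Derl1 was lost with library size only and without any of the libraries but replicate 3 of the cocultured fibroblasts (−0.28 to −0.18, adjusted p from 0.0691 to 0.176 with edgeR). Of 16 other signaling genes of the unfolded protein response 6 were lower and 1 higher (median −0.10). The lowest were Creb3l2 (−0.67, SE 0.066, adjusted p = 5.48e-05 with edgeR) and Creb3l1 (−0.64, SE 0.113, adjusted p = 0.00192 with edgeR), membrane-bound relatives of Atf6 that act on secretory and collagen genes. Atf6b was the higher one (0.24, SE 0.080, adjusted p = 0.0413 with edgeR), and its call was lost without any library of the fibroblasts alone and without replicate 2 of the cocultured ones (0.18 to 0.26, adjusted p from 0.0793 to 0.121 with edgeR).

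The kinases and factors around eIF2 held 1 gene past a fold of 2 in each direction. Of 17 genes 4 were higher and 2 lower, with a median of 0.12. The 35.3% that passed was close to the 37.1% of all genes tested. Eif2ak2, the interferon-inducible eIF2 kinase that senses double-stranded RNA, went down from 354.3 ± 11.4 to 157.3 ± 2.77 CPM (SD, n = 3 each, with a log2 fold change of −1.17, SE 0.056, adjusted p = 5.05e-07 with edgeR). Impact, which restrains the eIF2 kinase that senses uncharged tRNA, increased from 102.6 ± 4.46 to 206.9 ± 13.1 CPM (1.01, SE 0.070, adjusted p = 5.19e-06 with edgeR). Eif2b3, a subunit of the exchange factor for eIF2, was also higher (0.62), and Ppp1r15b, the constitutive counterpart of Ppp1r15a, was lower (−0.19, SE 0.055, adjusted p = 0.0234 with edgeR). That last call was lost with library size only (−0.13) and without any library but replicate 3 of the cocultured fibroblasts (adjusted p from 0.053 to 0.099 with edgeR).

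Other genes of the Atf4 program were counted by function. Over all genes tested, 17.1% were higher and 20.0% were lower by edgeR. Limma on FPKM, which carries no TMM factor, gave all genes tested a median log2 fold change of 0.05 to 0.06, against 0.00 by edgeR. Of 12 amino acid transporters 6 were lower and none higher (median −0.23; with adjustment 0 higher also by DESeq2 and limma, and at an unadjusted p of 0.05 0 by edgeR and DESeq2 and 1 by limma), with Slc7a3 (−1.48, SE 0.153, adjusted p = 7.65e-05 with edgeR) and Slc43a1 (−1.19, SE 0.161, adjusted p = 0.000404 with edgeR) lowest. None of 13 genes of aminoacyl-tRNA synthetases and tRNA export passed by edgeR, with log2 fold changes from −0.03 to 0.15 (median 0.09) and groups that did not overlap for 2 (at an unadjusted p of 0.05, 1 was higher by edgeR, 1 by DESeq2 and 8 by limma, and with adjustment 0 by DESeq2, 1 by limma and 2 by edgeR with library size only). Of 21 other Atf4 targets 10 were lower and 3 higher (median −0.15). Apart from Fgf21, Ndrg1, which hypoxia also induces, had the lowest value (−1.78, SE 0.070, adjusted p = 1.53e-07 with edgeR), and Sqstm1, an autophagy receptor (0.55, SE 0.071, adjusted p = 0.000315 with edgeR), and Cth, an enzyme of cysteine synthesis (0.50, SE 0.086, adjusted p = 0.00162 with edgeR), were higher. Fgf21, a secreted hormone of the response, had 21, 20 and 15 counts alone and 3, 0 and 3 counts with Th17 cells. Its summed ratio alone over cocultured was 9.83 (95% interval 4.24 to 27.9, covering counting error only). Among 16 other enzymes of serine, proline and one-carbon metabolism 6 were lower and 4 higher (median −0.24), and Mthfd1l, a mitochondrial folate enzyme, was among the lower ones (−0.70, SE 0.060, adjusted p = 2.07e-05 with edgeR).

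Chaperones and related genes outside the ER were counted for comparison. The cytosolic list had 43.8% passing and the mitochondrial list 33.3%, where 37.1% of all genes tested passed. Of 16 cytosolic heat shock genes 4 were higher and 3 lower (median 0.11), with Hsph1 (0.82, SE 0.077, adjusted p = 4.09e-05 with edgeR) and Chordc1 (0.34) highest and Cryab (−1.33, SE 0.057, adjusted p = 2.67e-07 with edgeR) and Hspa1b (−0.45) lowest. Hspa1b did not pass without replicate 1 or 2 of the fibroblasts alone (−0.42 and −0.45, adjusted p = 0.0726 and 0.0603 with edgeR). Of 12 genes of mitochondrial chaperones, proteases and import 4 were higher and none lower (median 0.18; 0 lower by edgeR, DESeq2 or limma at an unadjusted p of 0.05), with Afg3l2 (0.56, SE 0.076, adjusted p = 0.000398 with edgeR) and the import gene Timm17a (0.44, SE 0.091, adjusted p = 0.0048 with edgeR) highest.

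Most tested markers of fibroblasts and macrophages were lower with Th17 cells. The summed level of 12 fibroblast markers was 36060.9 to 37920.1 CPM alone and 15959.4 to 17913.1 CPM with Th17 cells, and 9 were lower and 1 higher. Macrophage markers (14 listed, 7 with enough counts) included 6 that were lower, with sums of 60.1 to 64.1 CPM alone and 20.1 to 21.5 CPM with Th17 cells, and Adgre1 and Ptprc were at 0 in every cocultured library. Of 18 T cell markers 2 could be tested and 1 (Lck) was lower, the sums were 7.53 to 8.69 CPM alone and 4.79 to 5.58 CPM with Th17 cells, and Cd3d, Cd8a, Il17a, Il17f and Ccr6 had 0 counts in all 6 libraries. Sums of 8 endothelial markers (6.79 to 8.03 against 2.05 to 3.06 CPM) and 10 epithelial markers (6.59 to 8.69 against 5.65 to 6.05 CPM) did not overlap between the groups either, and 1 of 2 and 1 of 3 tested genes of these lists were lower. Over all genes tested, 20.0% were lower, 37.1% passed in either direction and 50.4% did not overlap in CPM. The T cell, endothelial and epithelial lists rest on few tested genes at low levels. The part of these markers in the results above was not tested.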

How the data were processed

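RNA of 3 libraries of fibroblasts alone and 3 with Th17 cells was analysed. Sequencing was on an Illumina NovaSeq after library preparation with a VAHTS kit. Per the submitters' processing notes, reads were processed with Seqtk, HISAT2 2.0.4, StringTie 1.3.3b and edgeR on mm10. The authors deposited raw fragment counts per gene and, beside them, FPKM values (scaled to gene length and library total). Use of strand and the assignment of fragments that match several genes were not given in the sources used here, so overlapping genes are uncertain. Positions are those of the deposited table. Of its gene identifiers, 34344 occur in GENCODE vM21 (GRCm38), and 99.9% of these overlap their annotated position.

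The main test used edgeR 4.0.16 under R 4.3.3: filterByExpr (minimum count 10), TMM, glmQLFit and glmQLFTest, with Benjamini-Hochberg adjustment over 13088 genes. A member was called with an adjusted p below 0.05. The study's further limit, a fold change above 2, is given beside it. The common dispersion was 0.0136 (biological coefficient of variation 11.6%). The SE is the log2 fold change divided by the square root of F, and CPM uses TMM library sizes. FPKM was used for levels between genes. No library was a copy of another (chi-square per gene of at least 6.39 within groups, at least 80.4 between them). Replicate 3 of the cocultured fibroblasts stood furthest from its group (15.3 to replicate 1 and 14.1 to replicate 2). Cocultured replicates 1 and 2 differed by 8.54, and libraries of fibroblasts alone by 6.39 to 7.4. The 95% intervals of log2 fold changes come from the edgeR fit and include the spread between libraries, while floors and the interval of a ratio of summed counts cover counting error only. Tests were checked on simulated counts, where edgeR recovered 95.4% of 196 genes planted with a 3-fold change among 12952 genes, with 23 unchanged genes called. Smaller changes, such as those of most members, were not simulated, so their rate of recovery is not known.

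The members and the lists were chosen with earlier results of these data known. All 36 members are named, and from each pathway list at most 2 called genes at each end whose mean was 10 counts or more where it was higher. Some genes that this rule names are not reported here. Alternatives were other scalings (library size only, upper quartile, relative log expression), DESeq2 1.42.0, no filter or at least 10 counts in every library, a replicate block, limma 3.58.1 on log2(FPKM + 1) and log2(FPKM + 0.1), and leaving out each library. Promoters are from RefSeq. Python 3.11.15, pandas 2.3.3 and matplotlib 3.10.9 were used.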

Additional observations from a re-analysis of the deposited data

How the results depend on the processing

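All 14 members that passed kept their direction under the 15 alternatives, and 9 (Calr, Dnajb9, Hyou1, Ern1, Atf5, Xbp1, Atf3, Trib3 and Shmt2) kept their call under each. Hsp90b1 and Atf4 lost it under 4 alternatives each, Atf6 under 9, Ppp1r15a under 10 and Asns under 13. Of the 22 others, 16 passed under none and 6 (Canx, Pdia4, Sel1l, Cebpg, Phgdh and Mthfd2) under at least 1. In 8 members that did not pass, the sign differed under at least 1 alternative. The 8 lower members became 4 with limma, on log2(FPKM + 1) or log2(FPKM + 0.1), and 5 under library size only, and a fold change above 2 left 1 lower and 0 higher. Without 1 library there were 5 to 8 lower and 5 to 6 higher, and the lower count was 5 without replicate 2 and 5 without replicate 3 of the fibroblasts alone. The 24 higher pathway genes became 39 with limma on log2(FPKM + 1), 40 on log2(FPKM + 0.1) and 41 under library size only, and a fold change above 2 left 1 higher and 7 lower. Without 1 library, 17 to 28 pathway genes were higher and 45 to 68 lower. The median of all genes was 0.07 with library size only, 0.05 with limma on log2(FPKM + 1), 0.06 on log2(FPKM + 0.1) and 0.00 under TMM. Medians of the chaperones (0.05 to 0.13) and of the Atf4-type genes (−0.26 to −0.16) kept their sign. With the replicate block 5 members were higher and 7 lower. Libraries of the same number did not deviate together over all genes (correlations 0.0157, −0.0256 and −0.0036). The labels do not say whether these libraries were matched, and low correlations cannot exclude it. The causes were not tested. At this spread, members with intervals as wide as those of Hspa5 and Eif2ak3 could differ by amounts that these 6 libraries do not resolve.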

Other observations

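The spread of Hspa5 within groups was unusual for its level. Its highest library was 1.92 times its lowest in fibroblasts alone and 2.01 times with Th17 cells, where the median gene with a mean of at least 100 CPM (a limit chosen after seeing the data) had ratios of 1.07 and 1.13. Of 2112 such genes, 16 (0.758%), Hspa5 among them, had ratios as large in both groups. Txndc5, a thioredoxin-like folding enzyme of the ER, is another of them. It measured 213.7, 236.1 and 503.3 CPM alone and 332.0, 353.6 and 159.1 CPM with Th17 cells, so in both replicates numbered 3 it stood on the opposite side to Hspa5. Actg1, which encodes a cytoplasmic actin, measured 2294.1, 2418.7 and 1254.1 CPM alone and 2692.1, 2041.8 and 1257.3 CPM with Th17 cells, and was lowest in both replicates numbered 3. Other genes of the 16 had their extremes elsewhere. Crk was lowest in both replicates numbered 2 (85.8 CPM alone and 108.6 CPM with Th17 cells).

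Ratios of FPKM values within a library, chosen after seeing the data and given as a description, separated the groups for several pairs of members. For Atf5 to Atf4, Ern1 to Xbp1 and Calr to Hsp90b1, a gene called higher was divided by a gene called lower. Their separation therefore follows from those calls and adds no support. Ratios with Hspa5 overlapped between the groups, such as Hspa5 to Hsp90b1 (0.535, 0.547 and 0.296 alone against 0.408, 0.433 and 0.812 with Th17 cells). Atf5 stood to Atf4 at 0.222, 0.218 and 0.213 alone and at 0.354, 0.305 and 0.297 with Th17 cells. Ern1 stood to Xbp1 at 0.156, 0.146 and 0.146 alone and at 0.274, 0.254 and 0.235 with Th17 cells. Calr was below Hsp90b1 in every library kept alone (0.903, 0.98 and 0.99) and above it in every cocultured library (1.26, 1.34 and 1.22). Trib3 stood to Atf4 at 0.128, 0.127 and 0.124 alone and at 0.105, 0.108 and 0.121 with Th17 cells, so in the cocultured libraries it was lower even relative to Atf4. The chaperones without Hspa5 summed to 1.8, 1.76 and 1.76 times the Atf4-type genes alone and to 2.17, 2.04 and 1.98 times with Th17 cells.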
